A study of Homo sapiens with 2 samples.

Results

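The genes described here are the zinc finger genes of human chromosome 19, taken as the array's transcript clusters (its units for whole genes) whose identifier places them on chromosome 19 and whose platform annotation gives exactly 1 symbol that starts with ZNF and a number. This rule found 252 clusters of 250 genes among 67528 clusters on the array, of which 23781 carry 1 symbol and 1487 of those lie on chromosome 19. Another 9 clusters of chromosome 19 pair a ZNF symbol with further symbols and were left out. The set includes 235 clusters of protein-coding genes by the RefSeq annotation, 8 of long noncoding RNAs, most of them antisense or divergent to a ZNF gene, and 9 of pseudogenes. ZNF781 is among the latter. Symbol and chromosome choose the members, but the set itself was selected on the measured log2 differences between the 2 arrays, which were known when it was proposed. All counts and values are therefore descriptions of 2 arrays and support nothing beyond them.

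Expression was measured in FaDu, a cell line long in use that was derived from a squamous carcinoma of the human pharynx. One RNA sample came from untreated parental FaDu cells and the other from a FaDu line resistant to cetuximab, an antibody against the epidermal growth factor receptor. The labels used here say nothing of a drug dose, of time in culture, of how resistance was selected, of drug at harvest or of whether the resistant line is 1 clone. Each sample was hybridised to 1 Affymetrix Human Transcriptome Array 2.0, so there is no spread between replicates and no test, and the number of arrays limits the precision. Differences between the lines, their cultures and their arrays cannot be told apart.

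Most ZNF proteins of chromosome 19 carry arrays of C2H2 zinc fingers, which read DNA sequence, behind a KRAB domain, which recruits the corepressor TRIM28 and with it histone methyltransferase and heterochromatin proteins. The genes arose by tandem duplication and lie in clusters along both arms, and many of their products bind transposable elements. Promoters of several of these genes are known to carry DNA methylation in tumours, those of head and neck included.

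All values below are log2 expression values, and a difference is the resistant value minus the parental value of the same cluster. Values of different clusters are not comparable as amounts. A background level was set per array at the 95th percentile of 439 olfactory receptor clusters, genes that most epithelial cells do not use, which came to 5.15 for the parental array and 4.92 for the resistant one. The differences of these dim clusters had an SD of 0.47 over clusters, which is no replicate error. A fold is written "at least" where 1 array lay at or below background, with the background level in place of the dim value. No fold is given where both arrays did.

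Of the markers fixed for squamous epithelium, 7 of 10 were measured and all 7 stood above background on both arrays, with values of 11.39 to 17.25 in the parental and 5.17 to 16.65 in the resistant line. KRT14 was 74.5-fold lower in the resistant line, at 11.39 and 5.17, the latter just above background. KRT5 was 11.3-fold lower, at 17.25 and 13.75, and EPCAM was 2.58-fold higher, at 12.61 and 13.98. KRT8 stood at 16.25 and 16.65, KRT18 at 15.73 and 16.28, KRT19 at 14.66 and 14.71 and CDH1 at 13.33 and 12.62. Fibroblast markers ranged from 3.70 to 5.22 and from 3.47 to 5.26, and leukocyte markers from 3.80 to 4.95 and from 3.73 to 5.01, at or near background. The summed level of each list, as log2, went from 18.35 to 17.91 for squamous, 6.72 to 6.73 for fibroblast, 6.94 to 7.63 for endothelial and 6.50 to 6.28 for leukocyte markers. In the resistant line the squamous sum rests mostly on KRT8 and KRT18, so it does not show the lower KRT5 and KRT14. The part of these lists in the differences below was not tested. Of the 4 endothelial markers, VWF and KDR lay below background on both arrays, while CDH5 stood at 6.14 and 6.98 and PECAM1 at 3.74 and 5.17. EGFR, the target of cetuximab, stood at 13.61 and 14.80.

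The promoters of 7 genes are shown first, as examples from both ends of the range of differences and of a level gene. ZNF229, ZNF347, ZNF844, ZNF560 and ZNF625 lay at or below background on the parental array and were at least 4-fold higher by their deposited values on the resistant array. ZNF772 was the member furthest lower that was above background, and ZNF146 was bright and nearly level. Each sequence is the RefSeq promoter of GRCh38.p14, from 250 bases before to 50 bases after the gene start, read 5′ to 3′ on the gene's strand, with CpG dinucleotides, the sites of DNA methylation, in capitals. The positions are chr19:44448423-44448722 on the minus strand for ZNF229, chr19:53159004-53159303 on the minus strand for ZNF347 and chr19:12064481-12064780 on the plus strand for ZNF844. They are chr19:9498567-9498866 on the minus strand for ZNF560 and chr19:12156685-12156984 on the minus strand for ZNF625. For ZNF772 the position is chr19:57477517-57477816 on the minus strand, and for ZNF146 it is chr19:36214856-36215155 on the plus strand.
ZNF229: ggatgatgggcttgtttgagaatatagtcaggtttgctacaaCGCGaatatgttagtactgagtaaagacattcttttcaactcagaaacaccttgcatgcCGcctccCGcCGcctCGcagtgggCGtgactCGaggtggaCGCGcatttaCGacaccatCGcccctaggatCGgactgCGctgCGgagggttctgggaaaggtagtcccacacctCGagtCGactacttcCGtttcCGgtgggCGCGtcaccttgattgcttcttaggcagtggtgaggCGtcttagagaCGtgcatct
ZNF347: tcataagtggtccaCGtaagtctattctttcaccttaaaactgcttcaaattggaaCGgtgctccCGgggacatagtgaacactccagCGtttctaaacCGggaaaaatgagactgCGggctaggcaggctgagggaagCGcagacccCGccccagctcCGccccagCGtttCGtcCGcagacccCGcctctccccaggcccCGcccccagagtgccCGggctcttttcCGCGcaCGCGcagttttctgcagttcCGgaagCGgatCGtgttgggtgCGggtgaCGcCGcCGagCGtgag
ZNF844: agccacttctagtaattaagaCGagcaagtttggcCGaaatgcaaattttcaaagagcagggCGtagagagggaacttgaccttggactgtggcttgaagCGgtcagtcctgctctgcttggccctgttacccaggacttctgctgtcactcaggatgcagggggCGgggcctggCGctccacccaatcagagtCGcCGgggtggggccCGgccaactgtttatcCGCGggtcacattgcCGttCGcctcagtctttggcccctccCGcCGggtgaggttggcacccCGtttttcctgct
ZNF560: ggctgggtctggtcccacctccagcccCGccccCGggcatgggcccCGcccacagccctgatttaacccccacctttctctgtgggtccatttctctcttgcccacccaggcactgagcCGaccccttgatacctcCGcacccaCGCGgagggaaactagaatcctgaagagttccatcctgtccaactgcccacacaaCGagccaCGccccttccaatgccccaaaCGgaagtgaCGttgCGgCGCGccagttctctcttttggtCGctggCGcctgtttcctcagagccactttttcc
ZNF625: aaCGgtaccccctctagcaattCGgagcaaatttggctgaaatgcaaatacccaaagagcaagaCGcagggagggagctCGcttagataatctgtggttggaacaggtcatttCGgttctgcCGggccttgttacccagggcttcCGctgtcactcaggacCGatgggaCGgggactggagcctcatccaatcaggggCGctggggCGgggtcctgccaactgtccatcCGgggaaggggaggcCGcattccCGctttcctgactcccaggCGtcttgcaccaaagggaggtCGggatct
ZNF772: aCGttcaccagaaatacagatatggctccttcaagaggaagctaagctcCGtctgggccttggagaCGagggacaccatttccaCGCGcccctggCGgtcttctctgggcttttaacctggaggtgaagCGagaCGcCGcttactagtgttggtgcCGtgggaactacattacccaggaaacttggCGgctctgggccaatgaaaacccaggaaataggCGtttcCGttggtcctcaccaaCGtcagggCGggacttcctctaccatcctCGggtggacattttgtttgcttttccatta
ZNF146: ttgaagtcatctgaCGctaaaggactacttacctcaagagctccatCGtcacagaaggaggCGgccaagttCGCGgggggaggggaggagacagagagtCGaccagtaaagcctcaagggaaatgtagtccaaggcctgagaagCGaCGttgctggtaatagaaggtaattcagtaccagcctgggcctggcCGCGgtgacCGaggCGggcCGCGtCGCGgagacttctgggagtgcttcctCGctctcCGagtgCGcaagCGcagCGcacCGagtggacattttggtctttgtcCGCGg

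These windows held 23 CpG in ZNF229, 27 in ZNF347, 24 in ZNF146, and 16 in each of ZNF844, ZNF560, ZNF625 and ZNF772. The promoters of ZNF844 and ZNF625, which lie in the same cluster of the p arm, were identical at 210 of 300 bases after global alignment, or 70.0%. The other 27 pairs among these 7 and the promoter of ZNF121 had 48.7% to 58.0% of bases identical.

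Along the set as a whole, the resistant line had more members above than below its parental value. Of 252 clusters, 156 had a positive difference, 93 a negative one and 3 none, with a median of 0.11 and a middle range (25th to 75th percentile) of -0.13 to 0.57. Of all 23781 named clusters, 10747 were positive and 12342 negative. Of the 1235 other named clusters of chromosome 19, 695 were positive and 497 negative. At least 2-fold higher in the resistant line were 32 members, or 12.7%, against 7.96% of all named clusters. At least 2-fold lower were 2 members, or 0.794%, against 7.66% of all named clusters. Of the 23781 named clusters, 9183 were above background on neither array, against 30 of the 252 members. Shares over all named clusters, here and below, are thus not matched to the members for brightness, and no excess is read from them. The median over all named clusters was -0.02. Most members differed little, and 171 of 252 had an absolute difference under 0.5.

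The other named genes of chromosome 19 showed much of the same pattern. Of their 1235 clusters, 141 (11.4%) passed 2-fold on the higher side and 24 (1.94%) on the lower side, with a median of 0.06. Without a filter, the excess of higher over lower calls was thus shared with the other named genes of the chromosome. Among clusters above background on at least 1 array, 14.4% of the ZNF members and 19.2% of the other named clusters of chromosome 19 were at least 2-fold higher. Clusters can pass this filter through the resistant array alone, so no conclusion is drawn from these shares. Among clusters whose mean of both arrays was above background, the shares were 14.6% and 19.9%. ZNF genes elsewhere in the genome were the reverse: of 296 clusters, 15 (5.07%) passed 2-fold on the higher side and 33 (11.1%) on the lower side, with a median of -0.08.

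**Figure D1:**
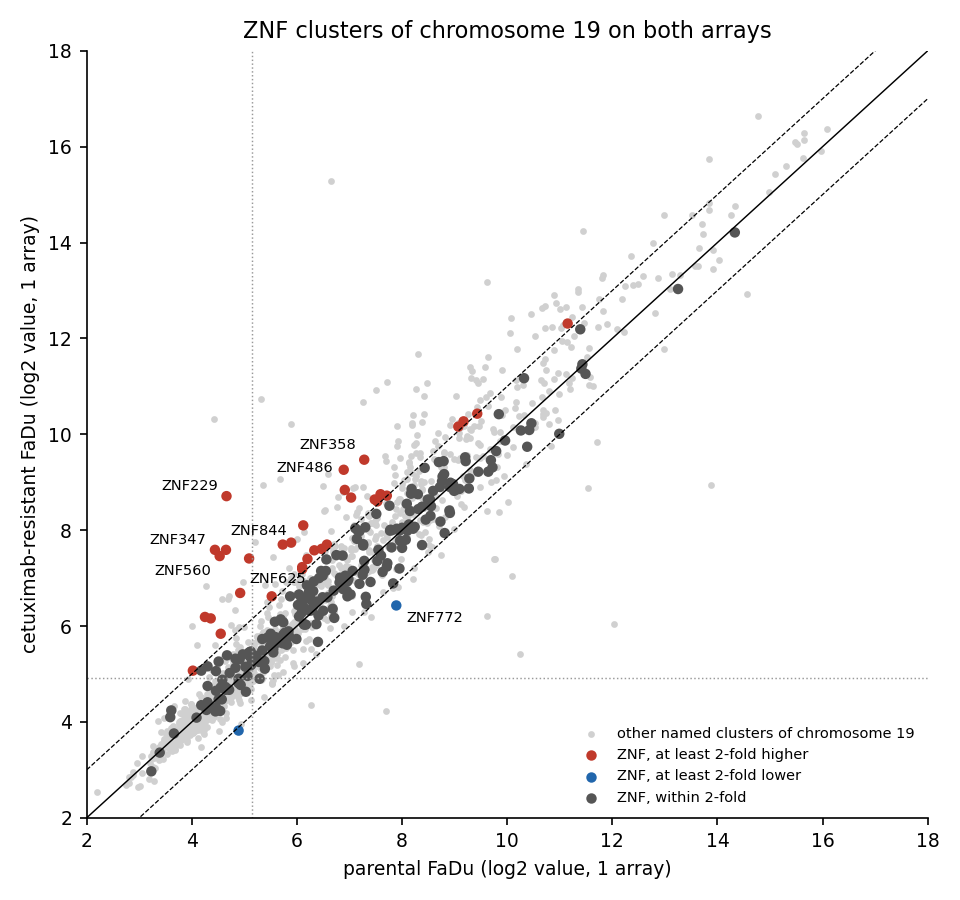
Log2 value of each named chromosome 19 cluster in parental (x axis) and cetuximab-resistant FaDu (y axis), 1 array each; ZNF clusters are coloured by call, other named clusters are grey, dashed lines mark 2-fold and dotted lines the background levels of 5.15 and 4.92. Red points (32) outnumber blue ones (2), and 5 labelled genes lie left of the parental background line and above 7 on the resistant axis.

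The largest differences were of genes that were at background in the parental line. ZNF229, a KRAB zinc finger gene of the q arm, stood at 4.66 on the parental array and 8.71 on the other, a difference of 4.05 and at least 11.8-fold. ZNF347 stood at 4.44 and 7.59, at least 5.41-fold higher. ZNF844 stood at 4.65 and 7.59, likewise at least 5.41-fold. These 3 genes were at background in parental FaDu and above it in the resistant line. ZNF560 stood at 4.53 and 7.46, at least 4.95-fold higher, and ZNF625 at 5.09 and 7.41, at least 4.78-fold. All 5 resistant values also exceeded the 99th percentile of olfactory receptor clusters on that array, 7.07. They were the only members at background on the parental array that did so.

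ZNF486 and ZNF358 completed the 7 members with a difference of at least 2, and both were above background on each array. ZNF486 stood at 6.89 and 9.26, 5.17-fold higher, and ZNF358 at 7.28 and 9.47, 4.56-fold higher. At this 4-fold threshold the members' share was 2.78%, near the 2.58% of all named clusters, while 0 members were at least 4-fold lower against 1.93% of all named clusters. Other named clusters of chromosome 19 gave 2.35% and 0.729% at this threshold, and ZNF clusters elsewhere 1.69% and 1.01%.

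Of the 32 higher members, 22 were above background on both arrays and 10 on the resistant array alone. After the 7 above came ZNF90 at 6.12 and 8.10, the transcribed pseudogene ZNF702P at 5.73 and 7.70, ZNF682 at 4.25 and 6.19, ZNF880 at 6.91 and 8.84, and ZNF415 at 5.89 and 7.74. ZNF676 stood at 4.36 and 6.16, at least 2.01-fold higher, and ZNF829 at 4.92 and 6.69, at least 2.90-fold. ZNF43 stood at 7.03 and 8.68, a difference of 1.65. These 8 genes had differences between 1.65 and 1.98. The members just inside the threshold were ZNF791 at 9.43 and 10.43, ZNF749 at 7.71 and 8.72 and ZNF285 at 4.02 and 5.07 on the higher side, and ZNF556 at 4.89 and 3.82 on the lower side. ZNF556 lay below background on both arrays. Just outside were ZNF675 with -0.98, ZNF557 with -0.94, ZNF627 with 0.93 and the pseudogene ZNF542P with 0.89.

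**Figure D2:**
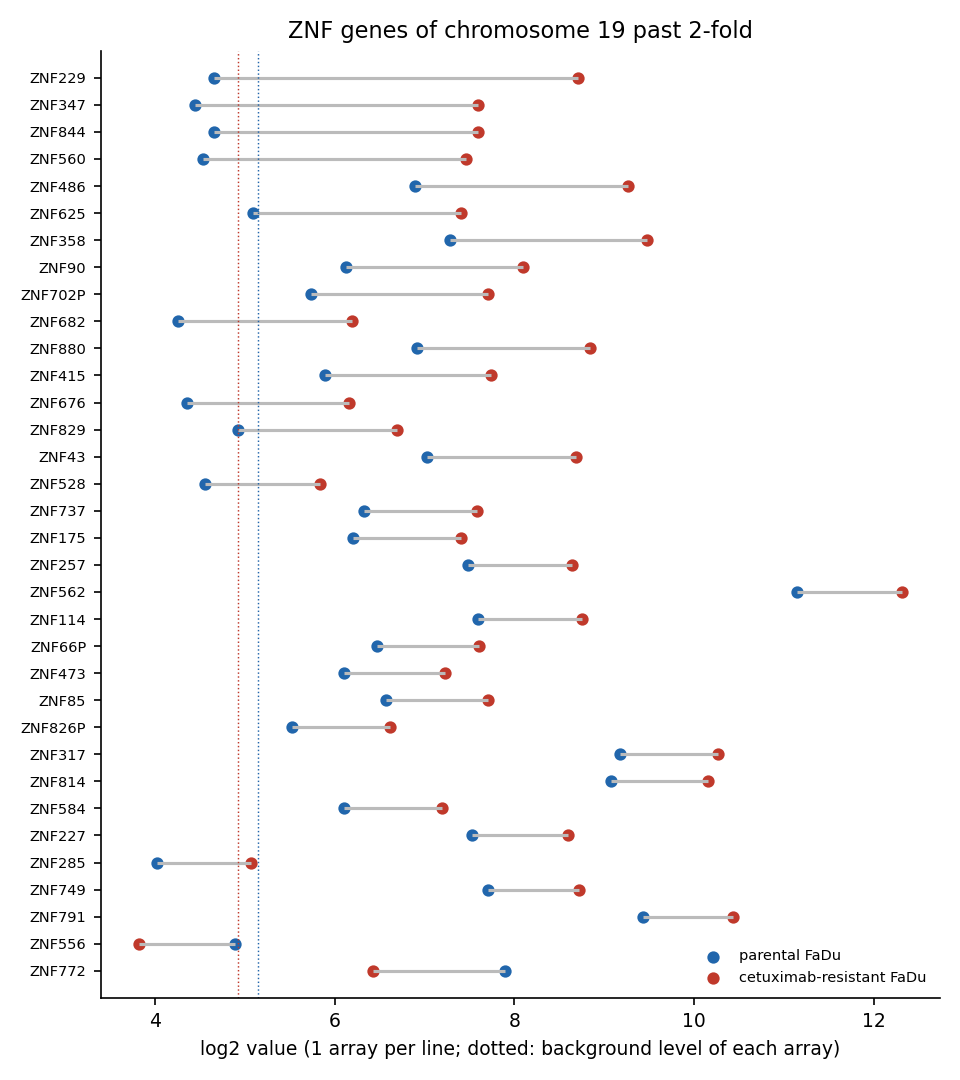
Log2 values in parental (blue) and cetuximab-resistant FaDu (red) of the 34 members past 2-fold, ordered by difference; dotted lines are the background levels of each array. ZNF229 has the longest span, from 4.66 to 8.71, and only ZNF772 and ZNF556 have the red point on the left.

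ZNF772, on the distal q arm, was the 1 member above background that was at least 2-fold lower, at 7.89 and 6.43, 2.75-fold. Smaller negative differences belonged to ZNF675, known as an inhibitor of TRAF6 signalling, at 10.99 and 10.01, ZNF557 at 7.83 and 6.89, ZNF440 at 8.81 and 7.94, and ZNF585B at 7.32 and 6.46. ZNF17, the pseudogene ZNF137P, ZNF418, ZNF780A, ZNF431, ZNF83, ZNF544, ZNF793, ZNF548 and ZNF776 had differences between -0.75 and -0.49. Of the genes in this paragraph, ZNF772 alone reached 2-fold.

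Counted against background, 192 members were above it on both arrays, 29 on the resistant array alone, 1 on the parental array alone and 30 on neither. The 29 make 11.5% of members, against 5.13% of all named clusters and 6.80% of the other named clusters of chromosome 19. The 1 is ZNF333, at 5.29 and 4.90 (0.397% of members, against 1.77% of all named clusters and 0.972% of the others of chromosome 19). Among ZNF clusters elsewhere the shares were 4.73% and 1.69%. This count leans on the gap between both background levels: 14 of the 29 had a difference under 0.5, and 1 of them, ZNF527, was lower in the resistant line (5.06 and 4.96). With background at the 90th percentile the counts were 19 and 2, and at the 99th percentile, where the resistant level (7.07) exceeds the parental one (6.48), they were 14 and 22. Of the 29, the 5 genes with resistant values above 7.07 are those named first.

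Along the chromosome the members fell into 11 blocks of at least 5 clusters, a block being a run with at most 5 other protein-coding genes between neighbours in RefSeq order. The blocks hold 229 members. Counts of calls within blocks are to be read beside the 7.96% higher and 7.66% lower of all named clusters. On the p arm 17 of 85 members (20%) passed 2-fold on the higher side and 1 on the lower, beside 82 of 536 other named clusters of that arm (15.3%). On the q arm 15 of 167 (8.98%) were at least 2-fold higher and 1 lower, beside 59 of 699 others (8.44%). Both the members and the other named clusters thus had higher shares on the p arm than on the q arm. The others of the p arm include KIR2DL2, KIR2DS2, KIR3DS1, KIR2DS1 and LILRA3, ranked at its tip although their relatives KIR3DL3 and LILRB1 lie on the q arm. None of these genes reached 2-fold.

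**Figure D3:**
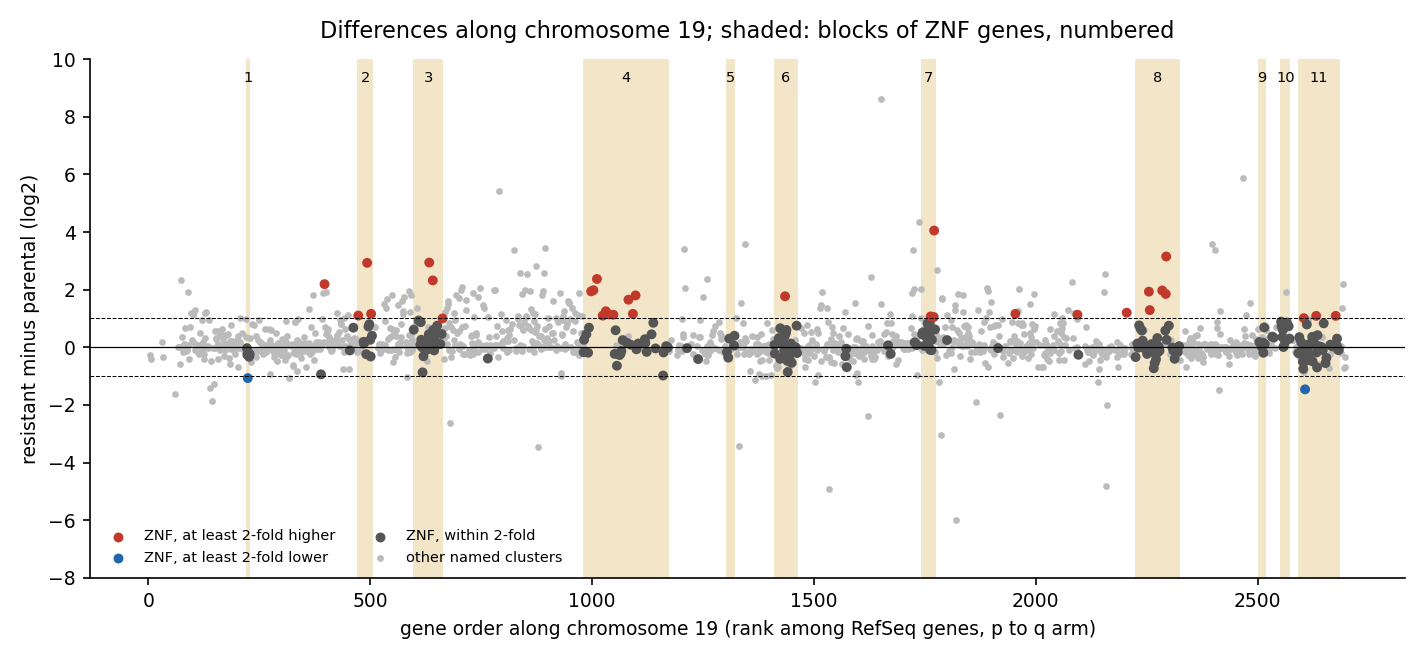
Difference between resistant and parental FaDu (log2, y axis) of named chromosome 19 clusters by gene order (x axis, rank among RefSeq genes); ZNF clusters are coloured by call, others grey, and shaded bands are the 11 blocks. Higher calls are most frequent in block 4, which holds 10 of the 32, and 2 members are blue. Some grey points at the p end, of KIR genes and LILRA3, belong to gene families of the q arm.

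The block from ZNF101 to ZNF254, next to the centromere on the p arm, had a median of 0.20 and a range of -0.98 to 2.37. It held 10 of the 32 higher members among its 36, or 27.8%, against 7.96% of all named clusters. Of these 10, 7 were consecutive members: ZNF682, ZNF90, ZNF486, the pseudogene ZNF826P, ZNF737, ZNF66P and ZNF85. Their differences were 1.94, 1.98, 2.37, 1.10, 1.25, 1.14 and 1.13. ZNF826P stood at 5.52 and 6.62, ZNF737 at 6.33 and 7.58, ZNF66P at 6.47 and 7.61 and ZNF85 at 6.57 and 7.70. This was the longest such run on the chromosome, since each of the 5 other runs held 2 members. Next to it the pattern stopped: ZNF93 before it had a difference of 0.68, and ZNF430 after it stood at 9.69 and 9.46. ZNF43, ZNF257 (7.48 and 8.64) and ZNF676 were the remaining higher members of the block. The 8 other named clusters inside the block are mostly noncoding RNAs and pseudogenes, so their median of -0.05 is no comparison for it. Neighbouring ZNF genes are paralogs of similar sequence, so probes may read more than 1 of them and single values are uncertain. Probe sequences were not analysed here.

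The block from ZNF317 to ZNF812P had the median 0.40 over 11 members, 9 of them positive. The 4 other named clusters inside it are olfactory receptor clusters, the class that sets the background level, and are no comparison for it. Besides ZNF560, its higher members were ZNF317 at 9.17 and 10.27 and ZNF562 at 11.15 and 12.31. ZNF121 stood at 11.39 and 12.19, under 2-fold. The block from ZNF653 to ZNF791 had a median of 0.26 over 27 members, 21 of them positive, and its higher members were ZNF844, ZNF625 and ZNF791. Its 7 other named clusters, most of them ribosomal RNA pseudogenes, had a median of 0.67. In the block from ZNF554 to ZNF77, near the tip of the p arm, all 6 clusters had negative differences, from -1.07 to -0.03, with ZNF57 at 6.37 and 6.04 and ZNF555 at 5.99 and 5.73.

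On the q arm, the block from ZNF283 to ZNF180 had a median of 0.46, with 18 of 20 members positive and a range of -0.10 to 4.05. ZNF229 and ZNF285 are neighbours there, and ZNF227 stood at 7.53 and 8.60. ZNF284 stood at 7.16 and 7.99. The block from ZNF542P to ZNF835 had 10 of 10 positive differences, from 0.01 to 0.89, with a median of 0.47. Its members were dim, with 2 of 10 above background on both arrays, and with values raised to background its median was -0.01. ZNF71 was brighter and stood at 6.75 and 7.48, while ZNF470 stood at 4.30 and 5.16 and ZNF582 at 4.67 and 5.39. The other named clusters inside this block were 2, and 1 of them, the related zinc finger gene ZFP28, stood at 4.70 and 6.62, at least 2.76-fold higher.

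The 2 largest blocks of the q arm were centred near 0. The block from ZNF577 to ZNF331 had a median of 0.01 over 38 members, with 19 positive and 18 negative differences. Its 5 higher members were ZNF347, ZNF415, ZNF702P, ZNF880 and ZNF528, the last at 4.55 and 5.84. ZNF888 stood at 14.33 and 14.21, a difference of -0.12, and ZNF468 at 11.43 and 11.46. The block from ZNF264 to ZNF446 had a median of 0.01 over 41 members, with 21 positive and 20 negative differences. ZNF814 stood at 9.07 and 10.16, ZNF584 at 6.10 and 7.19, and ZNF772 and ZNF749 are its other members past 2-fold. ZNF460 stood at 11.49 and 11.26. Its 15 other named clusters had a median of -0.05.

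The block from ZNF565 to ZNF573 had a median of 0.04 over 28 members, with ZNF829 as its only higher member and ZNF607 at 7.76 and 8.51. ZNF146, a short zinc finger gene without a KRAB domain, stood at 13.25 and 13.03 there. The 7 other named clusters in this block had a median of -0.66. Besides noncoding RNAs they include the related zinc finger genes ZFP14, ZFP82 and ZFP30, all above background on both arrays. ZFP14 stood at 5.93 and 5.22, ZFP82 at 6.63 and 5.95 and ZFP30 at 6.14 and 6.38. In the small block from ZNF302 to ZNF792 the 5 differences ran from -0.36, of ZNF181, to 0.40, of ZNF792. In the block from ZNF628 to ZNF580 the 7 differences ran from -0.19, of ZNF784, to 0.69, of ZNF581.

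**Figure D4:**
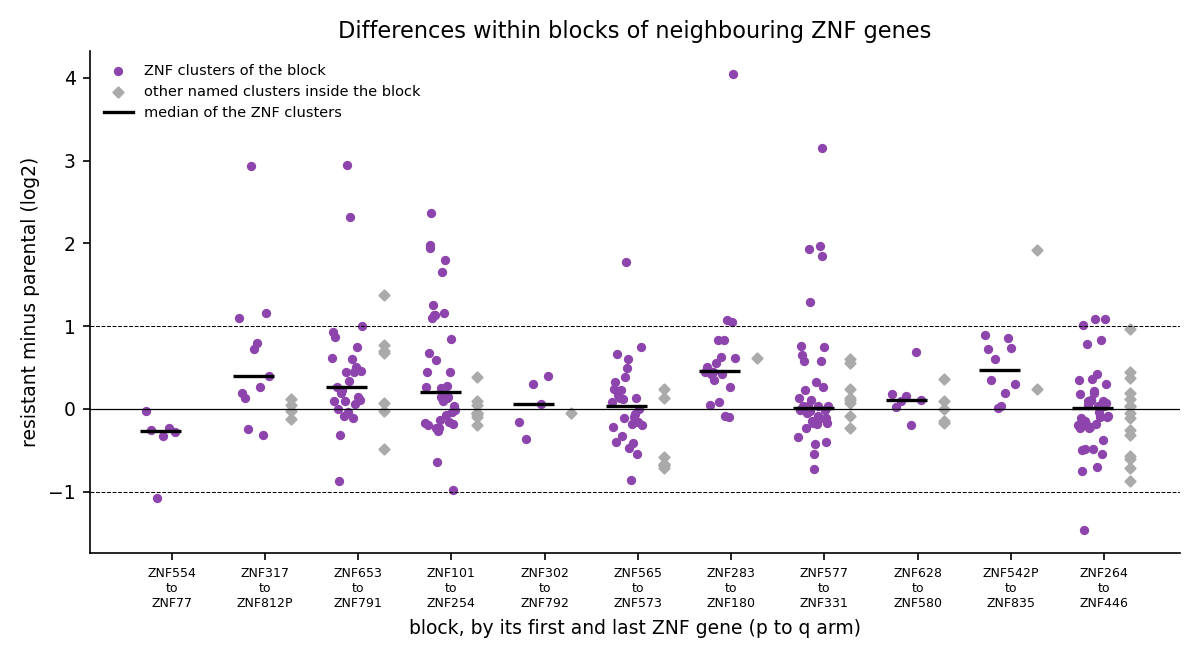
Differences (log2, y axis) of ZNF clusters (purple) and of other named clusters inside the same block (grey diamonds) for the 11 blocks, in order from the p to the q arm; black bars are medians of the ZNF clusters. Block medians range from -0.27 (ZNF554 to ZNF77) to 0.47 (ZNF542P to ZNF835). Many grey diamonds are noncoding RNAs, pseudogenes and olfactory or vomeronasal receptor genes, and are shown for position only. Others are related zinc finger genes, such as ZFP14, ZFP82 and ZFP30 (ZNF565 to ZNF573) and ZFP28 (ZNF542P to ZNF835).

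The remaining 23 members lay outside the blocks, with a median of 0.07. Against 7.96% higher and 7.66% lower of all named clusters, 4 of these were at least 2-fold higher and 0 lower. Besides ZNF358, they were ZNF175 at 6.20 and 7.40, ZNF114 at 7.59 and 8.75, and ZNF473 at 6.10 and 7.23. ZNF473 encodes a protein of the machinery that processes the ends of histone transcripts. Over 249 pairs of adjacent members the differences had a Pearson correlation of 0.24 and a Spearman correlation of 0.25, and over the 216 pairs within a block 0.29 and 0.29. These pairs share the 2 arrays.

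Divergent gene pairs, with starts within 1000 bases on opposite strands, gave 18 pairs with at least 1 ZNF member, 13 of them with both genes in the set. Counted singly, 7.96% of all named clusters were at least 2-fold higher. In 4 pairs 1 gene was at least 2-fold higher, and in 0 pairs were both. The 4 genes were ZNF829 and ZNF791 and, outside the set and chosen after their values were seen, DEDD2 beside ZNF526 and GEMIN7 beside ZNF296. ZNF829 and ZNF568 start 41 bases apart and stood at 4.92 and 6.69 and at 4.83 and 5.32. ZNF791 stands beside ZNF490, at 8.09 and 8.55. ZNF146 and ZNF565 start 22 bases apart, and ZNF565 stood at 5.74 and 5.82.

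Members with known roles were looked at by the lists. The 5 genes whose products bind transposable elements were above background on both arrays and within 2-fold. ZNF91, which represses SVA elements, stood at 11.41 and 11.37, and ZNF93, which represses LINE-1 elements, at 8.18 and 8.86. ZNF611 stood at 9.64 and 9.22, ZNF649 at 7.90 and 8.03, and ZNF765 at 9.27 and 8.87. Their median was -0.04, against -0.02 over all named clusters.

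Of 12 members known as promoter-methylated in tumours, 0 were at least 2-fold higher or lower, against 7.96% and 7.66% of all named clusters. Their median was 0.18, but -0.11 with values raised to background and -0.01 for clusters with a mean above background. ZNF331, which is imprinted, stood at 7.55 and 7.59, ZNF577 at 6.96 and 6.62 and ZNF569 at 5.85 and 5.79. These 3 were above background on both arrays. The other 9 were at or near background in the parental line. ZNF154, ZNF382, ZNF471 and ZNF781 stayed below background on both arrays, with resistant values from 4.31 to 4.65. ZNF132, ZNF582, ZNF671, ZNF677 and ZNF542P had resistant values from 5.02 to 5.45, just above the resistant background of 4.92.

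Genes of other roles, chosen after their values were seen, are ZNF274 and ZNF350. ZNF274, which recruits a histone methyltransferase to zinc finger gene clusters themselves, stood at 6.56 and 7.39. ZNF350, a partner of BRCA1, stood at 7.30 and 8.06. Neither reached 2-fold.

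The proteins that KRAB zinc fingers work through were measured for 15 of 17 genes, all above background on both arrays. Of these, 2 were at least 2-fold higher (13.3%, against 7.96% of all named clusters) and 2 at least 2-fold lower (13.3%, against 7.66%), with a median of 0.51. The shares over all named clusters include many that were below background on both arrays, so they are not matched to this list. TRIM28, the corepressor that the KRAB domain binds, stood at 12.36 and 13.71, 2.55-fold higher. TRIM28 itself lies on chromosome 19. SETDB1, the histone methyltransferase it recruits, stood at 9.24 and 7.91, 2.51-fold lower. The chromatin remodeller gene CHD3 stood at 12.06 and 10.44 and the NuRD subunit gene MTA2 at 11.40 and 12.73. The HP1 gene CBX3 stood at 11.52 and 12.38, under 2-fold.

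In the list of HUSH complex and histone methyltransferase genes, 1 of 10 was at least 2-fold higher (10%) and 1 lower (10%), near the 7.96% and 7.66% of all named clusters, and the median was -0.15. SUV39H2 stood at 9.22 and 10.25, EHMT1 at 9.17 and 8.04, SUV39H1 at 9.60 and 8.62, MORC2 at 9.97 and 10.94 and EHMT2 at 8.81 and 8.17. In the list of DNA methylation genes, of which 10 of 11 were measured, 1 was at least 2-fold higher (10%, against 7.96% of all named clusters) and 3 lower (30%, against 7.66%), with a median of -0.12. HELLS, a remodeller needed for DNA methylation, stood at 12.57 and 10.43, TET2, a methylcytosine oxidase, at 8.57 and 6.80, TET1 at 6.16 and 5.01 and the methyl-CpG binding protein gene MBD1 at 7.33 and 8.88. DNMT1, the maintenance methyltransferase, stood at 13.28 and 13.33. The measured genes of both lists were all above background on both arrays, so here too the shares over all named clusters are not matched.

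Other C2H2 zinc finger genes of chromosome 19, with symbols other than ZNF, gave 17 clusters with a median of 0.00, of which 1 was at least 2-fold higher (ZFP28) and 1 lower, or 5.88% each, against 7.96% and 7.66% of all named clusters. The lower one was ZFP36, at 13.87 and 8.95, 30.3-fold, which its symbol placed in this list although its product is a CCCH-type RNA-binding protein. Of the 17 differences, 8 were positive, 7 negative and 2 were 0. Named after their values were seen, ZSCAN22 stood at 5.52 and 4.81, above background on the parental array alone. ZIK1 stood at 3.92 and 4.89, below background on both arrays.

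The genes with 2 clusters were ZNF77 and ZNF529. The clusters of ZNF77 stood at 4.45 and 4.22 and at 5.39 and 5.11. Those of ZNF529 disagreed, one at 6.19 and 6.85 and the other at 5.03 and 4.63, the latter near background.

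Promoter sequences of the RefSeq table were matched to 212 of 250 member genes. Their median CpG count over 300 bases was 20, beside 21 for other named genes of chromosome 19, 24 for ZNF genes elsewhere and 14 for all 34961 promoters of the table. The 27 members with a promoter that were at least 2-fold higher had a median of 17 and a range of 8 to 34, and the 183 within 2-fold a median of 21 and a range of 2 to 49. The range of the higher members lay inside that of the others. The lowest counts among higher members were of the block from ZNF101 to ZNF254: 8 for ZNF737 and 9 for ZNF90, ZNF85, ZNF66P and ZNF682. Members of that block within 2-fold also had low counts, such as 9 for ZNF429, ZNF681 and ZNF708, though others reached up to 18, of ZNF101. The part of this block in the lower median was not tested. The 25 members above background on the resistant array alone had a median of 23.

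**Figure D5:**
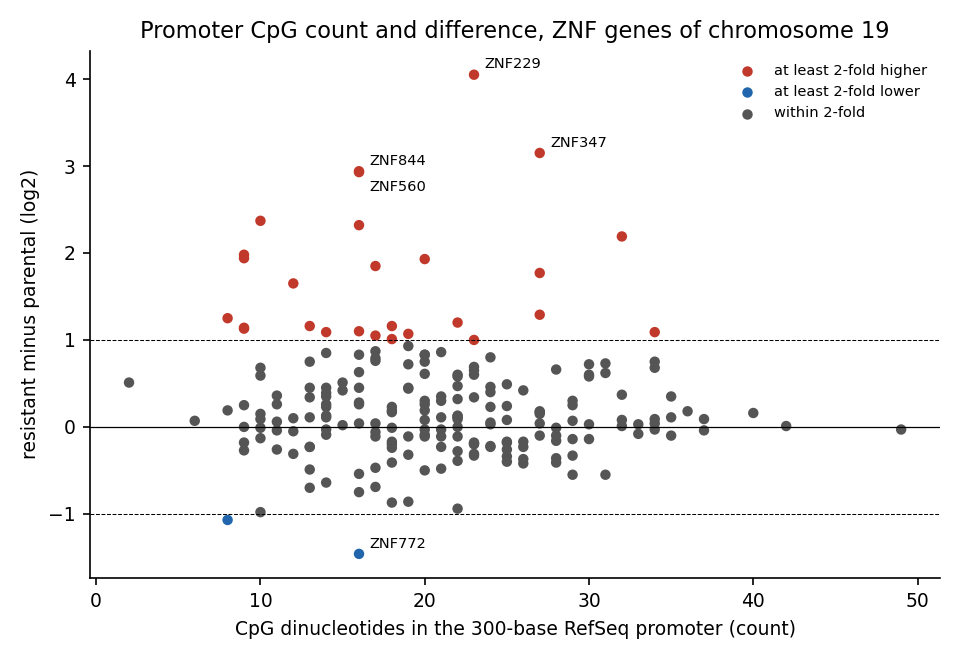
CpG dinucleotides in the 300-base RefSeq promoter (x axis, count) against the difference between resistant and parental FaDu (y axis, log2) for 212 ZNF genes of chromosome 19, coloured by call. Higher genes spread from 8 to 34 CpG, inside the range of 2 to 49 of genes within 2-fold.

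Of the motifs searched on both strands, the ETS core CCGGAAGT, which itself contains a CpG, was found in 43 of 212 member promoters (20.3%), beside 4.55% of those of other named genes of chromosome 19, 14.9% of those of ZNF genes elsewhere and 4.14% of all promoters. Among members at least 2-fold higher it was in 3 of 27 (11.1%), and among those within 2-fold in 40 of 183 (21.9%). The YY1 motif AAGATGGC was in 7.08% of member promoters and 2.89% of all, and the AP-1 motif TGANTCA in 6.13% and 7.68%. The CRE motif TGACGTCA was in 3.30% and 1.85%, a longer NRF1 motif in 1.89% and 1.24%, and a longer ZNF143 motif in 0.943% and 0.232%. A match is only a match of letters in this window.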

How the data were processed

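The deposited values are log2 expression values, 1 column per array, made by the authors with Affymetrix Expression Console per the submitters' processing notes. For the algorithm, the normalisation and the build, the entry is: not given in the sources used here. Over all clusters the median difference was -0.07. Detection calls and scan data were not used here.

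That the values are log2 was judged from their range. Symbols came from the platform annotation, and gene order and biotype from RefSeq (GRCh38.p14): 247 members matched by gene ID, 4 by symbol and 1 by synonym. RefSeq coordinates served for order and promoters only. Arms were split at the largest gap between protein-coding gene starts. With 1 array per line no test was run, and calls are differences of at least 1 log2 unit (2-fold) without a brightness filter. Members and lists were chosen with earlier results of these data known. Genes named are members with a difference of at least 2 log2 units, the 15 furthest on each side above background, the 6 brightest, the leading ones of each block, those next to the threshold, list members and those with 2 clusters. Other members named, such as block ends, the rest of the run of 7, other higher members, divergent partners and those above background on 1 array, were chosen after their values were seen. Promoters were aligned globally with Biopython 1.88 (match 1, mismatch -1, gap opening -3, extension -0.5). Protein sequences were not used here. Scripts ran in Python 3.11.15 with pandas 2.3.3, numpy 2.4.6, scipy 1.17.1 and statsmodels 0.14.6, and calls were tested on simulated data. Alternatives were median centring, loess (span 0.3), quantile normalisation, floors and filters at background, 1 value per gene, updated symbols, thresholds of 1.5-fold and 4-fold, background at the 90th and 99th percentile, and blocks with at most 3 or 10 other genes between members. Protein-coding members only was added after the data were seen.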

Additional observations from a re-analysis of the deposited data

How the results depend on the processing

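No paired analysis was possible because each line has 1 array. The number of members at least 2-fold higher was 30 to 37 under every scaling, floor, filter and member rule tried, and the number lower 1 or 2. A threshold of 1.5-fold gave 61 higher and 11 lower members, and one of 4-fold 7 and 0. The number lower was 1 with values raised to background, with clusters above background on at least 1 array and with a mean above background, since ZNF556 is below background on both arrays. Under these 2 filters the share of other named chromosome 19 clusters that were higher was 19.2% and 19.9%, and their median 0.28 and 0.30. Raising values to background moved that median to -0.23, which is the gap between both background levels.

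The median of the members was 0.24 under loess. The medians of the blocks beginning with ZNF653, ZNF101, ZNF302, ZNF283, ZNF577 and ZNF628 were then 0.41, 0.34, 0.17, 0.60, 0.17 and 0.28, and those of the HUSH, DNA methylation and transposable element lists 0.01, 0.00 and 0.08. With values raised to background, the blocks beginning with ZNF317, ZNF302, ZNF565, ZNF542P and ZNF264 had medians of 0.26, -0.16, -0.14, -0.01 and -0.14. For clusters above background on at least 1 array, the blocks beginning with ZNF302, ZNF542P and ZNF264 had -0.05, 0.66 and -0.10, and for a mean above background -0.05, 0.35 and -0.10. The promoter-methylated list had -0.11, 0.33 and -0.01 under these 3 settings. With protein-coding members only, the blocks beginning with ZNF317 and ZNF542P had 0.72 and 0.60. Background at the 90th percentile gave 19 members above it on the resistant array alone and 2 on the parental array alone, and at the 99th 14 and 22. Of 221 alternative values, 179 moved by at most 0.1 log2 units or, for counts and shares, at most 1.5 times. Apart from changes that follow from dropping or raising dim clusters or from the threshold itself, the cause was not tested. The limits are 1 array per line, dim clusters and similar sequences of neighbouring genes.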
